A study of Mus musculus with 20 samples.

Results

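The glutathione, glucuronide and sulfate conjugation enzymes are described here across the cecum of mice fed raw potato starch (RPS). They were taken as the protein-coding genes of the count table whose symbol began with Gsta, Gstk, Gstm, Gsto, Gstp, Gstt or Gstz and a digit, with Ugt1 or Ugt2, or with Sult and a digit. This gave 48 of the 19887 genes in the table, of which 24 were glutathione S-transferases (GST), 13 were UDP-glucuronosyltransferases (UGT) and 11 were sulfotransferases (SULT). Of these, 33 passed the filter on low counts and were tested (19 GST, 7 UGT and 7 SULT genes). RNA from the cecum of 20 C57BL/6 mice was sequenced, 5 mice on each of 4 diets. All mice were 3 weeks old at the start and ate the Total Western Diet (TWD), a rodent diet built on the nutrient intake of Americans, for 6 weeks. For 3 more weeks each group received the TWD holding RPS, a resistant starch, at 0, 2, 5 or 10%, so the 0% RPS group was also on the TWD. The samples were pieces of tissue in which epithelium, muscle and immune cells were mixed, and in such samples fewer cells of a type and less RNA per cell cannot be told apart.

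These enzymes carry out the conjugation step of drug and xenobiotic metabolism. GSTs couple glutathione to electrophiles, UGTs attach glucuronic acid from UDP-glucuronic acid, and SULTs transfer sulfate from PAPS, and the conjugates are more soluble and leave the cell through efflux transporters. In the gut epithelium the same enzymes meet compounds from the diet and from bacteria as well as bile acids and steroids, and many of their genes are targets of the sensors NFE2L2, AHR, PXR and CAR.

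Several of the genes are close copies of each other, which bears on what a read count of 1 gene means. Gsta1 and Gsta13, alpha class GSTs on chromosome 9, had coding sequences of 669 bases that differed at 2 bases (99.7% identity). The first 50 coding bases are shown because they hold 1 of these differences, in capitals (GRCm39, plus strand), at chr9:78139522-78139571 for Gsta1 and chr9:78165994-78166043 for Gsta13.
Gsta1: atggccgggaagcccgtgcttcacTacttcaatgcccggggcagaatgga
Gsta13: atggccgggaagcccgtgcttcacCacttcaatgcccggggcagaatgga
Of the 620 windows of 50 bases in the coding sequence of Gsta1, 545 were also found in Gsta13. Over all exons of Gsta1, 91.8% of such windows occurred in another gene, against 0% for Gsta4. The table gave Gsta1 1433 counts over the 20 mice and Gsta13 59 counts, and a read that lies within a shared window cannot be given to either gene by its sequence.

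Gstp1 and Gstp2, a pair of pi class GSTs on chromosome 19, where Gstp3 also lies, differed at 12 of 630 coding bases (98.1% identity). Coding bases 281 to 330 are shown because 5 of the differences fall there (capitals, minus strand, written along the coding strand), at chr19:4086694-4086743 for Gstp1 and chr19:4090988-4091037 for Gstp2.
Gstp1: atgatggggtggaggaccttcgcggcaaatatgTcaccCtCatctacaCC
Gstp2: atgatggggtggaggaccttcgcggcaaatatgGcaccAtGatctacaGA
The 6 Ugt1a genes of the table shared all of 4 coding exons (735 bases) and differed only in the first. Accordingly, 70.7% of the windows of Ugt1a1 and 77.1% of those of Ugt1a7c were shared. In 10 of the 48 genes over 50% of the windows were shared, while 28 genes had under 5% and 18 had none. Sult1d1, Sult1b1, Sult2b1, Sult6b1, Gstk1 and Gsta4 were among those with none, and Ugt2b5 (28.8%) and Gstm1 (9.0%) lay between. How the counting program divided shared reads is not given in the sources used here, so the genes were also tested after near copies had been summed.

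The mice had between 14967798 and 42687283 counts in all (median 30156799), so that 3 counts correspond to 0.0698 to 0.19 CPM (counts scaled to the TMM-adjusted library total). In 3 libraries (0% RPS mouse 5, 2% RPS mouse 3 and 5% RPS mouse 4) gene levels followed the GC content of the exons (rank correlation 0.522 to 0.568 over 11682 genes, against -0.305 to 0.198 in the other 17). Mitochondrial transcripts made up 13 to 15.4% of their counts against 9 to 11.5%, and none of the 3 was from the 10% RPS group. For 9 of the 33 tested conjugation genes all 3 libraries lay below all other 17, and for 2 genes above them, where 10.7% and 7.79% of all genes tested did so. Sult1d1 was at 457.1 to 574.8 CPM in the 3 libraries and at 834.4 to 1185 CPM in the 17, Gstp1 at 51.2 to 60.8 against 72.8 to 120.8 CPM, and Ugt2b34 at 405.2 to 449.8 against 520.4 to 716.7 CPM. Gstt3, a theta class GST, was higher in the 3 libraries (9.14 to 10.4 CPM) than in the 17 (4.99 to 8.64 CPM). The GC content was 33.1% for Sult1d1 and 38.8% for Ugt2b34, but 56% for Gstp1 (median of tested genes 48.9%). Gsta1, with a mean log2 deviation of -1.66 in the 3 libraries, had 48%. Low levels in these libraries were thus not confined to genes of low GC content, and their cause was not tested. The results below are therefore given for all 20 mice and, where it matters, without these 3 libraries. This choice was made after the data had been seen.

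**Figure D1:**
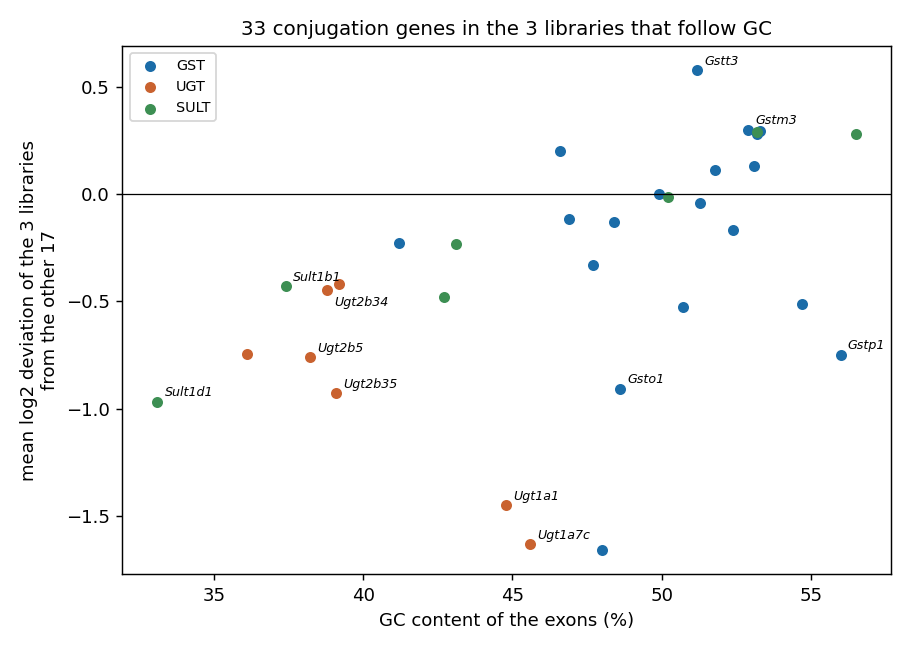
Mean log2 deviation of the 3 libraries from the other 17 (vertical axis) against the GC content of the exons in percent (horizontal axis) for the 33 tested genes, 1 point per gene, coloured by class and named where all 3 libraries lay outside the range of the 17. Sult1d1, with the lowest GC content (33.1%), lies at -0.97, while Gstt3 lies at 0.58.

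The tissue expressed a few conjugation genes very strongly and many weakly. Levels between genes are compared per transcript length, in TPM (counts divided by exon length and scaled to a common total), over the 20 mice. Sult1d1, a sulfotransferase of catecholamines and phenols, was the highest, with a median of 1218 TPM (range 514.6 to 1484). Sult1a1, the phenol sulfotransferase, followed at 666 TPM (486 to 845.6) and Sult1b1, which sulfates thyroid hormones and small phenols, at 339.3 TPM (194.4 to 432.8). These 3 genes held a median of 95.1% of the summed SULT level. The class had the highest summed level of the 3 (median 2474 TPM against 1072 for GST and 508 for UGT).

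Among UGTs, Ugt2b34 alone held 80.7 to 88.5% of the summed level in TPM, with a median of 416.3 TPM (261.6 to 499.8). It was followed by Ugt2b5 at 54.8 TPM (23.9 to 65.9) and Ugt2b35 at 14 TPM. Both Ugt1a genes that passed the filter were low, Ugt1a7c at 5.34 TPM and Ugt1a1, which conjugates bilirubin, at 3.65 TPM. The GST class was more evenly spread, and its 3 highest genes together held 49.1 to 56.3% of its level. Gstm1, of the mu class, was at 215 TPM (174.9 to 272.4), Gstp1 at 180 TPM (82.8 to 224.9) and Gstk1, the kappa class enzyme of mitochondria and peroxisomes, at 172.6 TPM (81.1 to 208.7). All 7 Gstm genes, which lie side by side on chromosome 3 (107803137 to 107952210), passed the filter, from 5.69 TPM (Gstm7) to the level of Gstm1.

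Between neighbours in this order, from Sult1d1 down to Sult6b1, 5 of 31 pairs kept their order in all 20 mice, 14 did in 17 or more and 14 in 13 or fewer. Sult1a1 exceeded Ugt2b34, and Ugt2b34 exceeded Sult1b1, in all 20 mice, and Sult1d1 exceeded Sult1a1 in 18 of 20. Gstp1 exceeded Gstk1 in only 13 of 20 mice, Gsto1 exceeded Gsta4 in 12 of 20 and Gsta1 exceeded Sult4a1 in 9 of 20, so these neighbours were not separated. At the low end, Ugt1a9 had no count in any mouse, Ugt1a8 had 1 count in all, Ugt1a6b 2, Sult1e1, the estrogen sulfotransferase, 4, Ugt1a6a 5, Ugt2b37 8 and Ugt2a1 22. Sult1e1 and the strongly expressed Sult1d1 and Sult1b1 lie next to each other on chromosome 5 (87661191 to 87739461). The annotation held 64 symbols that fit the rule, and the 16 that were not in the table, such as Sult2a1 and Ugt2b38, were not analysed here.

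**Figure D2:**
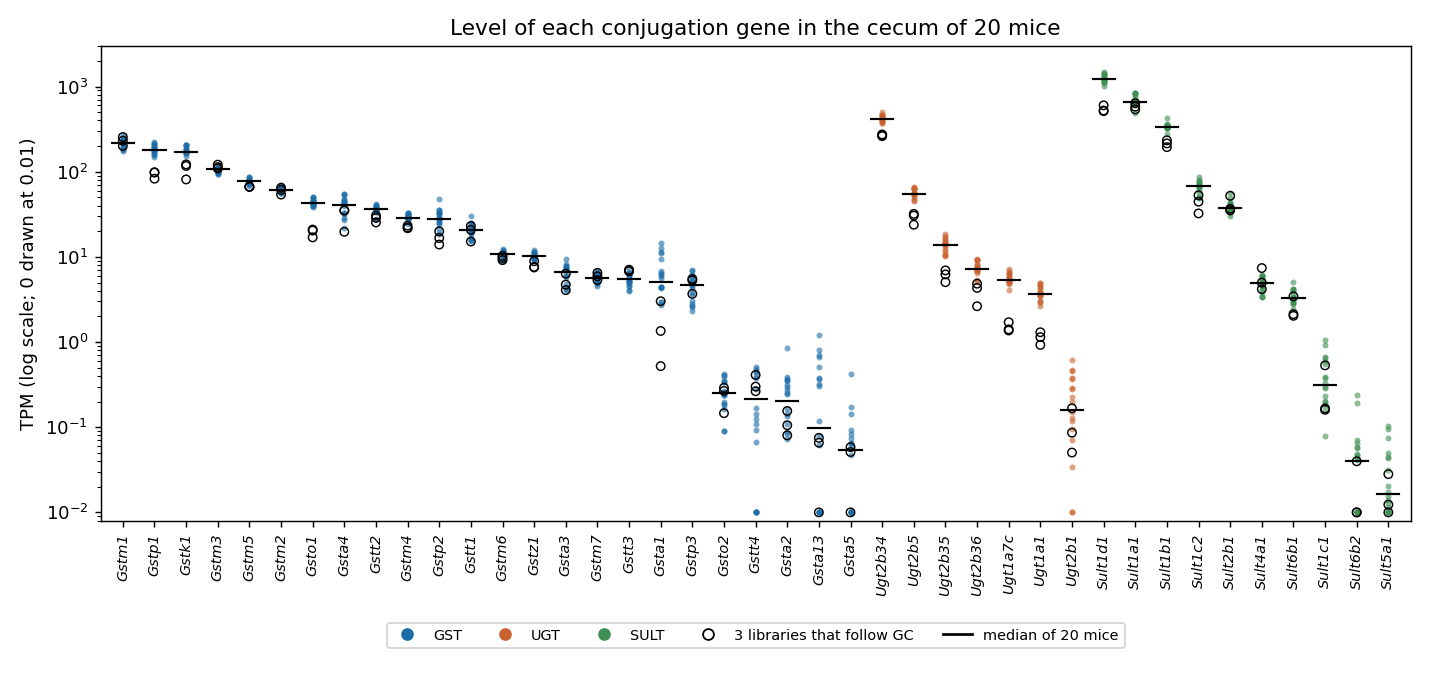
Level in TPM (logarithmic axis) of the conjugation genes whose median was above 0, 1 point per mouse and a bar at the median, grouped into GST, UGT and SULT, with the 3 libraries that follow GC content as open circles. Sult1d1 has the highest median (1218 TPM) and Ugt2b34 stands well above the other UGTs.

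With 10% RPS, none of the 33 genes passed the threshold of an adjusted p of at most 0.05 and a 1.5-fold change (edgeR's quasi-likelihood test with Benjamini-Hochberg adjustment over 15348 genes), where 1.04% of all genes tested did (0.547% higher and 0.495% lower). This share depended on single mice: 160 of all genes were called with 20 mice, 14 without 10% RPS mouse 3 and 344 without 0% RPS mouse 2, and in each of these fits no conjugation gene was. At an unadjusted p under 0.05, 1 gene had a higher and 6 a lower estimate, against 9.74% and 9.75% of all genes tested. By DESeq2 the count past the threshold was also 0, where 2.46% of all genes with an adjusted p were called. The median log2 difference of the 33 genes was -0.07 (all genes tested 0.00), and 23 of 33 estimates were below 0, as were 49.1% of those of all genes. For 21 of 33 genes (63.6%) the 95% interval lay within 1.5-fold in either direction, as for 60.5% of all genes. By class, the 5 lower GSTs were of 19 tested, no UGT of 7 had an unadjusted p under 0.05, and the SULTs had 1 gene on each side.

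The largest estimated difference among the GSTs was that of Gsta1, an alpha class enzyme that conjugates lipid peroxidation products. Its level was 2.83, 3.90, 5.25, 6.18 and 1.46 CPM in mice 1 to 5 on 0% RPS and 1.64, 1.24, 1.14, 2.45 and 2.40 CPM on 10% RPS. On 2% RPS it was 2.73, 4.52, 0.599, 4.73 and 1.14 CPM and on 5% RPS 2.30, 1.84, 1.71, 0.252 and 1.93 CPM. Of the mice on 0% RPS, 4 were above all mice on 5 and 10% RPS, and mouse 5, whose library followed GC content, was not. The log2 difference between 10 and 0% RPS was -1.15 (SE 0.53, adjusted p 0.241). The spread between mice was wide, and the 95% interval ran from -2.26 to -0.04.

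Without the 3 libraries Gsta1 passed the threshold with 10% RPS, with a log2 difference of -1.36 (SE 0.34, adjusted p 0.0337, interval -2.08 to -0.64), where 2.07% of all 15308 genes then tested were called. The 4 remaining mice on 0% RPS and the 5 on 10% RPS did not overlap, as for 5.45% of genes in that direction. When a further mouse was left out in turn, Gsta1 passed in 12 of 17 fits, with differences from -1.54 to -1.18 and adjusted p from 0.0121 to 0.1, where 46 to 598 of all genes were called. Summed with its near copies Gsta13 and Gsta2, it differed by -1.13 over 20 mice (adjusted p 0.237) and by -1.34 without the 3 libraries (adjusted p 0.036). Its call thus rested on leaving out these libraries, 1 of which was from the 0% RPS group. With 1 surrogate variable as a covariate over all 20 mice it was -0.55 (adjusted p 0.576). With the GC pattern of each library as the covariate Gsta1 did not pass the threshold either, where 2.12% of all genes did.

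Gsta4, the alpha class GST that prefers 4-hydroxynonenal, was at 37.2, 41.4, 47.9, 47.7 and 36.7 CPM on 0% RPS and at 23.5, 19.7, 27.3, 39.5 and 39.1 CPM on 10% RPS. Mice 1 to 3 on 10% RPS lay below every mouse on 0% RPS and mice 4 and 5 lay within their range. The log2 difference was -0.50 (SE 0.19, adjusted p 0.161). Gsta4 was chosen for its p after values were seen, as were Gstm2, Gstm7, Gstp3, Gstt1 and Sult2b1 below.

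Gstm1 was at 185.5, 219.6, 200.3, 176.3 and 244.8 CPM on 0% RPS and at 148, 145.7, 164.6, 193.7 and 170.9 CPM on 10% RPS. On 2% RPS it ranged from 158.8 to 203 CPM and on 5% RPS from 152.2 to 191.3 CPM. Only mouse 4 on 10% RPS, at 193.7 CPM, lay within the range of the 0% RPS group. The log2 difference was -0.32 (SE 0.10, adjusted p 0.101), and the highest mouse on 0% RPS was mouse 5, without which and without the other 2 such libraries it was -0.24 (adjusted p 0.102). With 1 surrogate variable, a covariate estimated from the counts, it was -0.42 (adjusted p 0.0339). With each library's correlation of counts and GC content as the covariate it was -0.30 (adjusted p 0.0286), both below 1.5-fold. Of the genes on either side of it, Gstm2 differed by -0.20 (adjusted p 0.233) and Gstm4 by -0.0028 (adjusted p 0.994). Farther along the cluster Gstm7 differed by -0.29 (adjusted p 0.207), while Gstm3 differed by -0.16 (adjusted p 0.375), Gstm6 by 0.06 and Gstm5 by 0.00. The sum of all 7 Gstm genes differed by -0.22 (SE 0.07, adjusted p 0.123).

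Gstp1 was at 107.4, 90.5, 112.1, 120.8 and 60.8 CPM on 0% RPS and at 72.8, 86.6, 82.6, 94.1 and 88.8 CPM on 10% RPS. Mouse 5 on 0% RPS was below all mice on 10% RPS, whereas each of the other 4 was above at least 4 of those 5. Over 20 mice the log2 difference was -0.21 (SE 0.20, adjusted p 0.605). Without the 3 libraries it was -0.33 (SE 0.09, adjusted p 0.0375), which met the adjusted p, as 5.27% of all genes did, but was under 1.5-fold. Gstk1 ranged over 74.4 to 110 CPM in the 0% RPS group and 73.1 to 99.2 CPM in the 10% RPS group, which overlapped widely, and the log2 difference was -0.07 (interval -0.41 to 0.26).

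None of the remaining GSTs had an unadjusted p under 0.05 with 10% RPS. Gstp3, a low pi class gene, was at 3.06 to 5.34 CPM without RPS and 2.01 to 5.28 CPM with 10% RPS, and differed by -0.28 (interval -0.79 to 0.23). Gstm5 had the narrowest interval of those given here (-0.15 to 0.15), from levels of 29.5 to 32.8 CPM on 0% RPS and 30.5 to 33.8 CPM with 10% RPS. Gstt2, of the theta class, differed by 0.07 (interval -0.13 to 0.28) and Gstz1, the zeta class enzyme of tyrosine breakdown, by -0.12 (interval -0.32 to 0.08). Neither interval reached a 1.5-fold change. Gsto1, an omega class enzyme with thioltransferase activity, was at 28.2 to 59.8 CPM and 43.2 to 58.9 CPM, with a difference of 0.08 over 20 mice (interval -0.40 to 0.55) and -0.06 without the 3 libraries (interval -0.27 to 0.15). Summed over the class, the GST level was 789.5 to 858.3 CPM without RPS, 668.7 to 775.9 CPM with 2% and 680.4 to 788.9 CPM with 5% RPS. With 10% RPS it was 674.6 to 796 CPM. On this scale all mice without RPS lay above all mice on 2 and 5% RPS and above 4 of the 5 on 10% RPS. Per transcript length the medians were 1105, 1054, 1101 and 1066 TPM, and the diets overlapped.

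No UGT passed the threshold or had an unadjusted p under 0.05 between 10 and 0% RPS in the 20 mice. Ugt2b34 was at 585.4, 562.2, 581.1, 589.9 and 431.4 CPM on 0% RPS and at 594.3, 716.7, 520.4, 522.8 and 540.3 CPM on 10% RPS. Mouse 2 on 10% RPS was the highest and mouse 5 on 0% RPS the lowest of these 10 mice. The log2 difference was 0.07 (SE 0.13, interval -0.20 to 0.35), so a change of 1.5-fold lay outside the interval. Ugt2b5 ranged from 30.4 to 52.8 CPM without RPS and from 34 to 52.6 CPM with 10% RPS (log2 difference -0.12, interval -0.54 to 0.30, and -0.23, interval -0.44 to -0.01, adjusted p 0.184, without the 3 libraries). Ugt2b35 ranged from 8.26 to 20 CPM and from 14.8 to 23.7 CPM (0.34, interval -0.17 to 0.86, adjusted p 0.458). The intervals of Ugt2b5 lay within 1.5-fold. That of Ugt2b35 did not over 20 mice but did without the 3 libraries (0.20, interval -0.10 to 0.50). With the surrogate variable its difference was 0.64 (adjusted p 0.0894), and with the GC covariate it was 0.34 (adjusted p 0.0473, below 1.5-fold). The largest UGT estimate was that of Ugt2b1, 0.53 (interval -1.03 to 2.09), from a gene with 119 counts in all and 0 in 1 mouse each on 5 and 10% RPS, and no difference was detectable at this depth. The sums of the Ugt2b and of the Ugt1a genes differed by 0.06 (interval -0.22 to 0.35) and -0.09 (interval -0.85 to 0.66). The Ugt1a sum differed by -0.31 without the 3 libraries (interval -0.59 to -0.02, adjusted p 0.168).

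The Ugt1a genes were the members in which the 3 libraries stood furthest apart beside Gsta1. Ugt1a7c was at 2.04 to 2.77 CPM in those libraries and at 5.25 to 10.1 CPM in the 17. With 10% RPS the log2 difference of Ugt1a7c was -0.06 over 20 mice (interval -0.84 to 0.71) and -0.28 without the 3 libraries (interval -0.59 to 0.03, adjusted p 0.245). Ugt1a1 differed by -0.15 (interval -0.90 to 0.60) and, without the 3 libraries, by -0.35 (adjusted p 0.263). Since most of their exons are common, these values are not independent of each other. The summed UGT level had a median of 489.9, 502.7, 516.6 and 506 TPM over the 4 diets, which overlapped.

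Of the SULTs, Sult6b1, a less studied cytosolic family member, was the 1 gene of the 33 whose mice on 10 and 0% RPS did not overlap, with all mice on 10% RPS higher, as for 1.68% of all genes tested. It was at 1.76, 1.99, 2.14, 2.35 and 1.72 CPM on 0% RPS and at 3.17, 2.81, 2.66, 2.87 and 2.66 CPM on 10% RPS. On 2% RPS it was at 1.95, 1.84, 2.55, 2.28 and 2.28 CPM and on 5% RPS at 2.27, 1.99, 2.16, 1.64 and 2.64 CPM. All mice on 10% RPS lay above the other 15 mice, and the other diets overlapped each other. The log2 difference to 0% RPS was 0.51 (SE 0.15, adjusted p 0.0792), or 1.42-fold, and without the 3 libraries it was 0.47 (adjusted p 0.074). By DESeq2 its adjusted p was 0.0384, at a change under 1.5-fold as well. The gene had 34 to 109 counts per mouse.

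**Figure D3:**
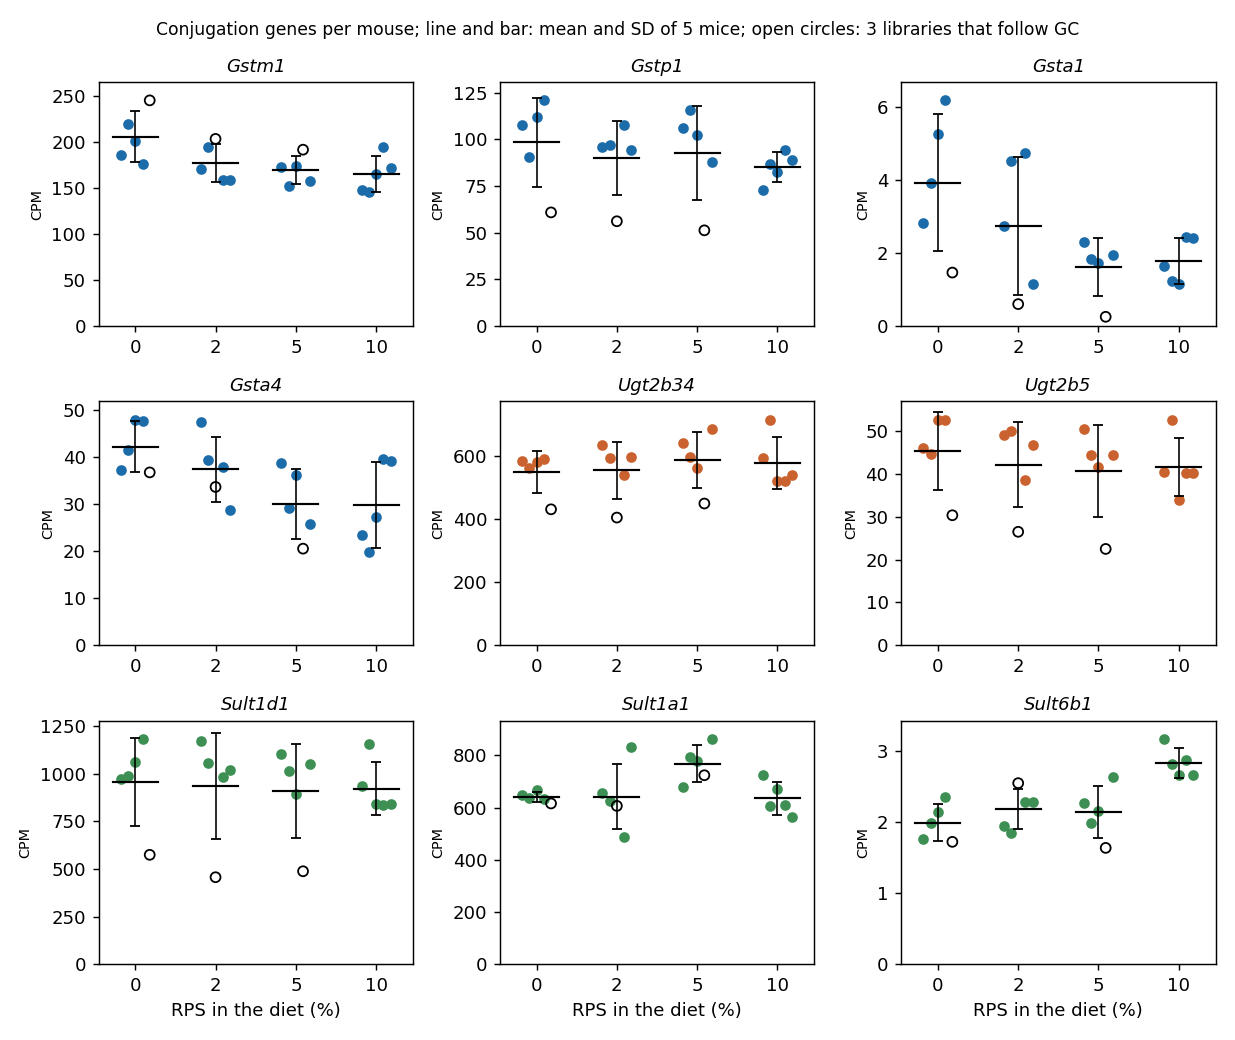
CPM of 9 conjugation genes in each mouse by diet (percent RPS), 1 point per mouse with the mean and SD of each diet, and with the 3 libraries that follow GC content as open circles. Sult6b1 on 10% RPS (2.66 to 3.17 CPM) lies above all other mice, while most open circles are at the bottom of their group for Sult1d1, Gstp1 and Gsta1.

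None of the 3 abundant SULTs had an unadjusted p under 0.05 with 10% RPS. Sult1d1 was at 970.6, 990.9, 1063, 1185 and 574.8 CPM on 0% RPS and at 935.6, 1158, 840, 834.4 and 841.6 CPM on 10% RPS. Mouse 5 on 0% RPS stood far below the other 9. The log2 difference was -0.05 (interval -0.54 to 0.44), which lay within 1.5-fold. Sult1a1 was at 616.1 to 666.6 CPM without RPS and at 564.3 to 725.2 CPM with 10% RPS (-0.01, interval -0.24 to 0.22). Sult1b1 was at 258.4 to 309.1 CPM and 291.1 to 415.8 CPM (0.15, interval -0.13 to 0.43). Sult2b1, which sulfates cholesterol and other hydroxysteroids, was at 47.2, 46, 55.8, 63.6 and 78.5 CPM on 0% RPS and at 42.7, 47, 36.2, 49.4 and 38.9 CPM on 10% RPS. Its groups overlapped between 46 and 49.4 CPM, and the log2 difference was -0.44 (SE 0.15, adjusted p 0.112). Its highest mouse, mouse 5 on 0% RPS, is 1 of the 3 libraries that follow GC content, without which the difference was -0.30 (adjusted p 0.208).

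**Figure D4:**
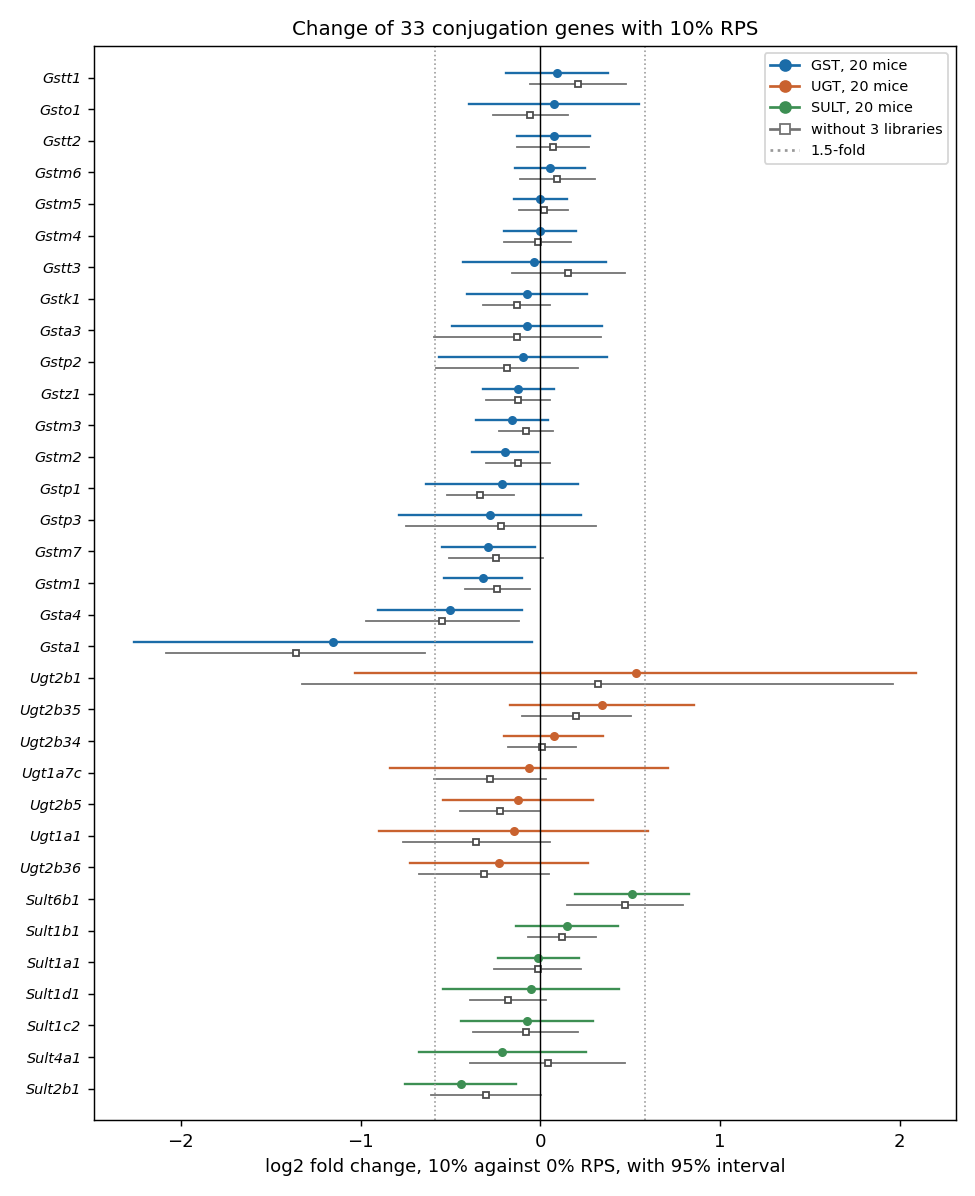
Log2 difference between 10 and 0% RPS with its 95% interval for the 33 tested genes, from all 20 mice and without the 3 libraries that follow GC content, with the 1.5-fold limits marked. Gsta1 lies lowest (-1.15 with all mice, -1.36 without the 3 libraries).

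With 5% RPS, none of the 33 genes passed the threshold, where 0.195% of all genes tested did. At an unadjusted p under 0.05, 2 genes had a higher and 4 a lower estimate, against 6.74% and 6.54% of all genes. Sult1a1 was at 677.6, 793.3, 778, 724.2 and 864.5 CPM on 5% RPS, and all 5 mice were above the 5 on 0% RPS, as was so for 1.53% of all genes. Its log2 difference was 0.26 (SE 0.11, adjusted p 0.288). On 10% RPS its mice overlapped those on 0% RPS (above). Gstt1, a theta class GST that acts on small halogenated compounds, was at 19.1 to 26.3 CPM against 14.2 to 22.7 CPM (0.36, adjusted p 0.234). Lower estimates were those of Gsta1 (-1.29, adjusted p 0.291), Gstp3 (-0.80, adjusted p 0.136), Gsta4 (-0.49, adjusted p 0.253) and Gstm1 (-0.28, adjusted p 0.219). By DESeq2 the number past the threshold was 0 as well, where 1.41% of all genes with an adjusted p were called.

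With 2% RPS, no gene of the 33 and none of all 15348 genes passed the threshold by edgeR (0%). By DESeq2 no conjugation gene did, where 0.027% of all genes with an adjusted p were called. No conjugation gene had an unadjusted p under 0.05, where 5.77% of all genes had, and the smallest adjusted p was 0.849 for Gstm1 (log2 difference -0.21). The estimates of 24 of the 33 genes were below 0, where 49% of those of all genes were, and their median was -0.08. The 3 comparisons share the 0% RPS mice, including mouse 5 of that group.

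Over the linear dose of RPS no conjugation gene passed an adjusted p of 0.05, against 1.11% of all genes tested. At an unadjusted p under 0.05 there were 1 rising and 6 falling genes (all genes 9.37% and 9.47%). The rising gene was Sult6b1, by 0.05 log2 units per percent RPS (adjusted p 0.0829), and the falling genes were Gsta1, Gsta4, Gstm1, Gstm2, Gstm7 and Sult2b1, with adjusted p from 0.112 to 0.238. By DESeq2 Sult6b1 passed (adjusted p 0.0416), where 4.84% of all genes did. Without the 3 libraries, Sult6b1 rose (0.05 per percent, adjusted p 0.0386), and Gsta1 (-0.13, adjusted p 0.0283) and Gstp1 (-0.03, adjusted p 0.0432) fell, where 5.8% of all genes were called. Summed with Gstp2 and Gstp3, Gstp1 did not pass over the dose (-0.03, adjusted p 0.0524). When 1 further mouse was left out, Gsta1 was called in 13, Gstp1 in 10 and Sult6b1 in 9 of 17 fits. Of all genes, 270 to 1554 were called in the 13 fits that called Gsta1 and 41 to 269 in the other 4.

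The other genes of the pathway were grouped by role, and their counts stand against the shares of all genes tested with 10% RPS (1.04% past the threshold, 9.74% higher and 9.75% lower at an unadjusted p under 0.05). The 3 microsomal glutathione transferases, which are membrane proteins unrelated to the cytosolic GSTs, all had estimates below 0 with 10% RPS (Mgst1 -0.31, Mgst2 -0.60, Mgst3 -0.47, adjusted p 0.2, 0.0784 and 0.0539), and none passed the threshold. Mgst2 was at 231.7, 241.8, 290.1, 264.9 and 195.6 CPM on 0% RPS and at 147.6, 165.1, 125.9, 211.1 and 156.1 CPM on 10% RPS. Only mouse 4 on 10% RPS lay within the range of 0% RPS. Mgst2 passed the threshold without the 3 libraries (-0.66, adjusted p 0.0225). In that fit 2 of the 3 met the adjusted p (5.27% of all genes in either direction) and 2 fell over the dose (3.04% of all genes fell). For all 3 the remaining mice on 10 and 0% RPS did not overlap, as for 5.45% of all genes in that direction. Of 20 tested genes for glutathione synthesis and recycling none passed, and 1 higher and 6 lower estimates had an unadjusted p under 0.05. These included Gclc, the catalytic subunit of the rate-limiting enzyme (-0.36, adjusted p 0.169), Gss (-0.46, adjusted p 0.185) and, on the higher side, Ggt1, which cleaves extracellular glutathione (0.80, adjusted p 0.121).

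Of 9 genes that supply UDP-glucuronic acid none met both the adjusted p and the 1.5-fold limit, and 5 lower estimates had an unadjusted p under 0.05. Among them were Hk2, hexokinase 2 (-0.81, adjusted p 0.067), Pgm2 (-0.40, adjusted p 0.0686) and Ugdh, which makes UDP-glucuronic acid (-0.25, adjusted p 0.186). Pgm1 met the adjusted p at a smaller change (-0.27, adjusted p 0.0477). Without the 3 libraries 3 of the 9 met the adjusted p with 10% RPS (5.27% of all genes in either direction) and 4 fell over the dose (3.04% of all genes fell). Of 11 genes of sulfate and PAPS supply 1 passed the threshold, upwards, and 2 lower estimates had an unadjusted p under 0.05. Without the 3 libraries 1 of the 11 fell over the dose (adjusted p 0.0357), where 3.04% of all genes did. The gene that rose was Slc26a3, the chloride and bicarbonate exchanger of the colonocyte surface, which is better known for chloride absorption than for sulfate. It was at 1199, 1287, 1337, 1271 and 915.5 CPM on 0% RPS and at 2048, 2459, 1615, 1528 and 1516 CPM on 10% RPS. All mice on 10% RPS were above all on 0% RPS, and the log2 difference was 0.61 (SE 0.16, adjusted p 0.0486), but without the 3 libraries it was 0.54 and under 1.5-fold. None of 8 other conjugating enzymes passed or had an unadjusted p under 0.05.

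At an unadjusted p under 0.05, 3 of 10 efflux transporters had a lower and none a higher estimate. The only 1 past the threshold was Abcb1a, the drug pump P-glycoprotein, which fell. It was at 911.2, 910.1, 1201, 990.1 and 976.5 CPM on 0% RPS and at 541.7, 656.3, 451, 710 and 538.7 CPM on 10% RPS. The groups did not overlap, as for 3.2% of all genes in that direction, and the log2 difference was -0.78 (SE 0.14, adjusted p 0.0111). It also fell with 5% RPS (-0.65, adjusted p 0.0434) and over the dose (-0.07 per percent, adjusted p 0.0275), and it was lower with 10% RPS without the 3 libraries too (-0.78, adjusted p 0.0141). The call with 5% RPS was lost in that fit (-0.61, adjusted p 0.0804). Of 16 xenobiotic receptors and sensors 1 fell with 10% RPS, Maff, a small partner protein of NFE2L2, from 30.9 to 57.2 CPM to 16.6 to 27.4 CPM (-0.94, SE 0.19, adjusted p 0.0251). At an unadjusted p under 0.05, 1 of the 16 had a higher and 6 a lower estimate. The bile acid receptor Nr1h4 (-0.34, adjusted p 0.0698) and Nr1i2, which encodes PXR (-0.25, adjusted p 0.0787), did not pass. Over the dose Maff and Pparg fell (-0.09 and -0.04 per percent, adjusted p 0.0275 and 0.0459), and without the 3 libraries 6 of the 16 did, against 3.04% of all genes in that direction. Of 16 other NFE2L2 and AHR target genes, Hmox1, heme oxygenase 1, fell from 5.14 to 8.56 CPM to 3.30 to 3.83 CPM (-0.88, SE 0.20, adjusted p 0.0289), with no overlap. Estimates of 14 of these 16 genes were below 0 (all genes 49.1%), with a median of -0.26 (all genes 0.00). At an unadjusted p under 0.05, 6 were lower and none higher, and without the 3 libraries 9 were lower (all genes 11.7%) and none higher.

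**Figure D5:**
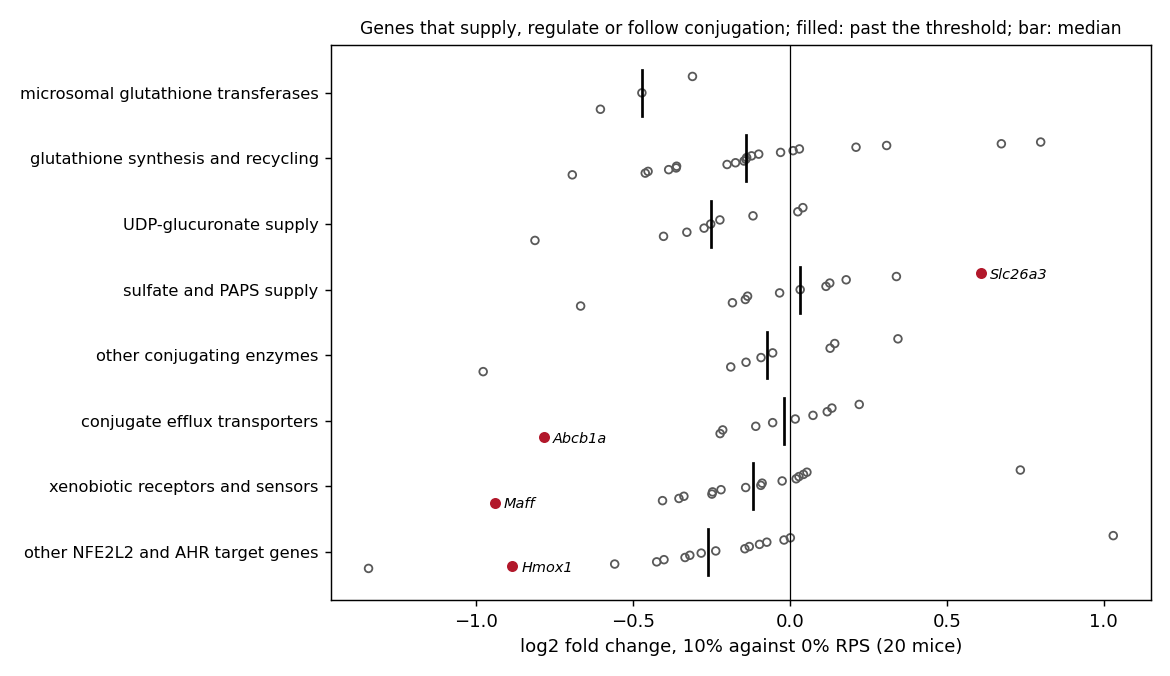
Log2 difference between 10 and 0% RPS for the tested genes of 8 pathway lists, 1 point per gene, filled where the gene passed the threshold. Abcb1a (-0.78), Maff (-0.94) and Hmox1 (-0.88) are the filled points below 0 and Slc26a3 (0.61) the filled point above it.

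Markers of the cell types in the tissue were compared in the same way, and few passed the threshold. All 10 epithelial markers had estimates below 0 with 10% RPS (median -0.14, none past the threshold), and their summed level was 12980 to 17110 CPM without RPS against 11540 to 15970 CPM with 10% RPS. Of 9 colonocyte markers 5 were below 0 and 1, Slc26a3, passed, upwards. Without the 3 libraries none passed upwards and 1 other passed downwards. At an unadjusted p under 0.05, 2 of the 9 were higher and 3 lower (all genes 9.74% and 9.75%). The sums of the 9 were 35720 to 41060 CPM without RPS and 30110, 39060, 25990, 31270 and 27140 CPM with 10% RPS, so that 4 of these 5 mice lay below all mice on 0% RPS. Car1 weighed heavily in these sums, with a median of 20400 CPM over the 20 mice. All 8 goblet cell markers were below 0 (median -0.54), 1 of them, Zg16, past the threshold (-0.84, adjusted p 0.0251), and their sums of 9082 to 12240 and 7173 to 8777 CPM did not overlap. All 8 smooth muscle markers were above 0 (median 0.78), with Actg2 and Synm past the threshold, and their sums were 2620 to 6120 and 4349 to 7240 CPM. Without the 3 libraries all 8 of the muscle markers passed it. Of 6 fibroblast and stroma markers 5 were above 0 (median 0.34). Of these 3 were higher, and the sixth marker lower, before p-values were adjusted (p under 0.05), and none passed the threshold. Their sums were 402.6 to 559.4 against 502.3 to 787.8 CPM. Of 6 tested ileal enterocyte markers 1, Apoa4, passed, downwards (-3.27, adjusted p 0.014), as it did with 5% RPS (-3.95, adjusted p 0.013) and over the dose (adjusted p 0.0333). Apoa4 lay between 0.0258 and 2.57 CPM over the 20 mice, its lowest level under 3 counts, and with 5% RPS it did not pass without the 3 libraries (-3.93, adjusted p 0.0724). The 5 adipocyte markers were all below 0 (sums 68.3 to 180.2 against 21.6 to 165.3 CPM) and the 5 tested B cell markers above it (55.4 to 446.2 against 270.5 to 491.1 CPM), with none past the threshold. All 8 markers of crypt base and proliferating cells were above 0 (median 0.18). None of them passed over 20 mice, and 1 passed, upwards, without the 3 libraries. With the summed epithelial marker level as a covariate, the log2 difference between 10 and 0% RPS was -1.01 for Gsta1, -0.52 for Gsta4, -0.33 for Gstm1 and 0.49 for Sult6b1. Without it the values were -1.15, -0.50, -0.32 and 0.51. The adjusted p with the covariate were 0.535, 0.351, 0.249 and 0.245. For Sult2b1 the difference was -0.18 (adjusted p 0.454), against -0.44 without the covariate. The covariate held no goblet cell or muscle markers. The part of any cell type in these differences, and in those of the pathway genes, was not tested.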

How the data were processed

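RNA from the cecum of 20 mice was measured by RNASeq. The values are raw counts per gene, which the authors deposited for each mouse and made from stranded poly(A) libraries by trimming and by mapping to GRCm39 with the CLC Genomics Workbench. No normalization had been applied, and the handling of reads that map to several genes is not given in the sources used here. Mice were assigned to diets by the sample labels and numbered 1 to 5 within a diet, so numbers do not pair mice, and p-values measure the spread between these mice.

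Names, coordinates, lengths and sequences came from GENCODE mouse release 39 (19827 of 19887 identifiers found). The analysis used edgeR 4.0.16 under R 4.3.3, with filterByExpr (minimum count 10, minimum total 15), TMM, and robust quasi-likelihood fits of the 4 diets or of the percentage of RPS over all mice. Genes were called when the p adjusted by Benjamini-Hochberg was 0.05 or less and the change at least 1.5-fold (no fold limit for dose). CPM values are TMM-scaled, TPM used the summed exon length, and intervals are 95%. Alternatives used DESeq2 1.42.0 and sva 3.50.0, other filters, scalings and covariates, near copies summed, and single mice left out. In simulated data for 10 against 0% RPS (15348 genes), 38 of 100 genes changed by 1.5-fold and 75 of 100 changed by 2-fold reached the adjusted p, with 5 false calls. The 1.5-fold limit was not applied there, and the simulated libraries held no shift such as that of the 3 libraries. Genes named with values were those past a threshold, the 3 most abundant of each class by TPM, those whose mice on 10 and 0% RPS did not overlap, and the largest change of each class. Other members named with values were chosen after these had been seen. From the pathway lists, genes called in any fit and up to 4 per list with an unadjusted p under 0.05 qualified. The members and lists were chosen with earlier results of these data known. The count of columns left out was 0.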

Additional observations from a re-analysis of the deposited data

Results flagged for a closer look

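Within the groups of 5 mice, the highest or lowest mouse was tested for its gap to the next mouse relative to the range of the group (Dixon's ratio above 0.71). Of 64 groups, from 16 conjugation genes and 4 diets, 9 held such a mouse, and chance alone gives about 5% of groups, or 3.2. Among the 2% RPS mice, mouse 3 stood below the other 4 for Gstk1 (45.3 against 83.6 to 94.8 CPM), Gstp1 (56.1 against 94.1 to 107.6 CPM), Sult1b1 (196.6 against 311.4 to 335.2 CPM) and Sult1d1 (457.1 against 982.5 to 1174 CPM). On 5% RPS, mouse 4 stood below the others for Gsta1 (0.252 against 1.71 to 2.30 CPM), and on 0% RPS, mouse 5 did so for Ugt2b34 (431.4 against 562.2 to 589.9 CPM). These 3 mice are the ones whose libraries followed GC content. In the other libraries, Sult1b1 was higher in 10% RPS mouse 2 (415.8 against 291.1 to 307.2 CPM), Sult2b1 was higher in 2% RPS mouse 4 (74.5 against 43.2 to 49.5 CPM), and Gstm7 was lower in 0% RPS mouse 3 (6.75 against 8.76 to 9.44 CPM).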

How the results depend on the processing

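No paired analysis was possible because no mouse number of the labels occurs in more than 1 diet. For the counts of genes past the thresholds, 190 values under alternative settings stayed at the reported count and 10 did not. Every reported count was 0, and with 2% RPS 0% of all genes were called, so an unchanged count carries little information. Over the dose, 1 gene fell with 1 surrogate variable (Gstm1) and 1 with the GC pattern of the library as a covariate (Gstm1), 2 fell without the 3 libraries that follow GC content (Gsta1, Gstp1), and between 0 and 1 fell when each mouse was left out, the 1 being Gsta4 without 10% RPS mouse 4. Over the dose, 1 gene rose by DESeq2's Wald test, 1 with the surrogate variable and 1 without the 3 libraries (Sult6b1 each time), 2 with the GC covariate (Sult6b1, Ugt2b35), and 0 to 1 with each mouse left out (Sult6b1 without 2% RPS mouse 3). Of all genes, 170 were called over the dose in the reported fit, 4.84% by DESeq2, 7.51% with the surrogate variable, 5.67% with the GC covariate, 5.8% without the 3 libraries, 563 without 10% RPS mouse 4, 674 without 2% RPS mouse 3 and 0 without 10% RPS mouse 1. With 10% RPS, 1 gene was lower without the 3 libraries (Gsta1), where 2.07% of all genes were called. The fits without the 3 libraries and with the GC covariate were chosen after seeing the data, and the causes of these differences were not tested.

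Single genes with 10% RPS kept their direction and side of the threshold in 351 values, passed it in 1 (Gsta1 without the 3 libraries, -1.36) and turned in 13. With the surrogate variable the log2 difference was 0.15 for Gstk1, 0.043 for Gstp1, 0.021 for Sult1a1, 0.28 for Sult1d1 and 0.16 for Ugt2b5. With the Ugt2b genes summed it was 0.064 for Ugt2b5. With each mouse left out it ranged from -0.13 to 0.00 for Gstk1 (0.0032 at its highest), from -0.061 to 0.036 for Sult1a1 (0.003, 0.0041, 0.0101 and 0.0359 where it turned), from -0.18 to 0.041 for Sult1d1 and from -0.015 to 0.12 for Ugt2b34, all of them genes with an interval around 0. With each mouse left out, Gsta1 lay between -1.36 and -0.92 and Sult6b1 between 0.47 and 0.58, and with the surrogate variable Gsta1 was at -0.55. The low counts of Sult6b1, Gsta1 and Ugt2b1 limit their precision. The sum of Sult2a and of Sult3a genes was not run, since those genes were not analysed here.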
